A study of Mus musculus with 30 samples.

Results

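The 34 genes described here encode proteins of G2 and mitosis, named one by one in a list drawn up for this work. All 34 were found among the 33924 genes of a read count table of mouse thyroid, and all 34 were among the 19016 genes with enough counts to be tested. The thyroids were wild type or Arid1a KO, both untreated, or carried Braf(V600E) alone or together with Arid1a KO, Arid2 KO or Smarcb1 KO. Each of the 4 genotypes with Braf(V600E) received vehicle or CKI, the labels' short name for CH5126766, an inhibitor of the MAPK kinase MEK, for 8 days, and the mice were killed about 2 h after their final dose. Groups held 3 libraries, except the Braf Arid2 KO groups with 2 each, so that 28 libraries in 10 groups were compared. Below, "Braf" alone stands for Braf(V600E) without a further deletion. Age, sex, strain, the promoter that drives the recombination and any pooling of animals are not given in the sources used here.

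A cell divides after it has copied its DNA, and the proteins for division are made late in the cycle. Cyclin B with Cdk1 starts mitosis, motors and spindle proteins align the chromosomes, a checkpoint waits for every chromosome to be attached, and the anaphase-promoting complex then marks cyclin B and securin for destruction. The messages of these genes are low in resting and early-cycle cells, where the DREAM complex holds many of them down, and rise in G2 with the factors B-Myb and FoxM1. A healthy adult thyroid divides little, whereas an activated Braf kinase signals through MEK to promote division. Arid1a, Arid2 and Smarcb1 encode subunits of SWI/SNF, a complex that moves nucleosomes and whose subunits are lost in some aggressive thyroid cancers. In a bulk sample, fewer dividing cells and less message per dividing cell cannot be told apart.

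Promoters are shown first, and whether their sequence bears on the results that follow was not tested. The short element TTTGAA, known as the cell cycle genes homology region or CHR, binds DREAM and B-Myb complexes, and CCAAT is the box bound by NF-Y. RefSeq promoter windows (build GRCm38.p6, 250 bases before to 50 after each start, 300 in all) matched 29 of the 34 genes. Ccna2, Aurkb, Kif20a, Tpx2 and Foxm1 were not matched. Reading both strands, TTTGAA was present in 20 of 29 windows (69.0%), against 17.9% of all 32851 windows of that length, and CCAAT in 22 of 29 (75.9%), against 37.4%. Both words occurred together in 18 of 29 (62.1%), against 6.95% of all windows. The variant TTCGAA, another word of the same length, was found in Bub1, Bub1b and Top2a (10.3% of 29, against 1.56%). Neither word was in the windows of Mad2l1, Birc5, Nusap1, Pttg1 and Melk, where only these letters were searched. The 120 bases before the start of 7 members are given 5′ to 3′ on the gene's strand, with matches to either word in capitals, also where a match lies on the other strand and so reads as its reverse complement. The first 5 hold both words, Ccnb1 holds CCAAT only, and Pttg1, the 1 member that was not highest in Braf Smarcb1 KO on vehicle, holds neither. Mad2l1, Birc5, Nusap1 and Melk, which also hold neither word, were highest in that group.
Cdk1, chr10:69352913-69353032 (-): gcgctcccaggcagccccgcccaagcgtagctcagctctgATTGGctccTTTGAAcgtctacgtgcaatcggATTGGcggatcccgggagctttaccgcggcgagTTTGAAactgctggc
Cdc20, chr4:118437344-118437463 (-): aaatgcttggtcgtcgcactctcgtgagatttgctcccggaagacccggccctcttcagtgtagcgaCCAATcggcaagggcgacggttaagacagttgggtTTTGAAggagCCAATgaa
Ube2c, chr2:164769809-164769928 (+): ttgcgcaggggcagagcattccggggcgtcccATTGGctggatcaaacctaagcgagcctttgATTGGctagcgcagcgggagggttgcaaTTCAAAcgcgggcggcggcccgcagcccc
Kif11, chr19:37376262-37376381 (+): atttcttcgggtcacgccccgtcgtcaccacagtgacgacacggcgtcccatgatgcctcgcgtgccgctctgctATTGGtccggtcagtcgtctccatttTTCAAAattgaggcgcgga
Espl1, chr15:102296173-102296292 (+): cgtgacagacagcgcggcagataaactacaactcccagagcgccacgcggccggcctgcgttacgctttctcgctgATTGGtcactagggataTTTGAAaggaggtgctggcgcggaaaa
Ccnb1, chr13:100786487-100786606 (-): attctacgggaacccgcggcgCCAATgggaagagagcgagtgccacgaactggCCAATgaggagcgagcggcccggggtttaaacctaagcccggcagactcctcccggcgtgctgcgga
Pttg1, chr11:43425982-43426101 (-): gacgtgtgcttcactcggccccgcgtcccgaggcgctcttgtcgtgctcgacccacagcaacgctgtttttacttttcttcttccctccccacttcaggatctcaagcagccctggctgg
In Cdk1, Cdc20, Kif11 and Espl1 a TTTGAA match began 15, 18, 19 and 27 bases before the start, and in Ube2c it began 29 bases before it. These are matches of letters and not measured binding.

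The libraries held 23879271 to 34400066 counts. Levels are given as counts scaled to a common library size with TMM factors (CPM), so that a value compares a gene between libraries and not genes with each other. The targeted gene Smarcb1 stood at 2.28, 10.03 and 17.9 CPM in the Braf Smarcb1 KO vehicle libraries (replicates 1, 2 and 3) and at 18.0, 47.4 and 11.9 CPM in the CKI libraries of that genotype (replicates 1, 2 and 4), against 101, 57.0 and 131 CPM in Braf vehicle and 74.8 to 152 CPM in wild type. It also stood at 22.3, 62.5 and 15.1 CPM in the untreated Arid1a KO libraries, within or near the range of the Smarcb1 KO libraries, although the labels give no Smarcb1 deletion there. Arid1a and Arid2 counts overlapped between their knockouts and Braf, and the labels do not say which exons were deleted, so those counts do not test the labels. The protocol text describes both frozen whole thyroids (for wild type, Arid2 and Smarcb1) and YFP+ cells sorted from dissociated thyroids, and attaches both to every sample, so preparation and genotype cannot be told apart. The 10 markers of thyroid follicular cells, none of them at 0 in any group, summed to between 62645 and 161114 CPM in wild type, 442 and 1216 CPM in Braf vehicle and 158 and 233 CPM in Braf Smarcb1 KO vehicle. The labels do not say that libraries of a group were taken from different animals, and the p-values therefore cover the spread among these libraries alone.

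Mitosis messages were highest in Braf Smarcb1 KO thyroids on vehicle. Averaged over the 34 genes as log2(CPM + 1), their level was 6.33, 6.17 and 4.79 in the libraries of that group (5.76 ± 0.85, SD, n = 3). Every other library of the 28 lay between 1.25 and 4.17. Wild-type libraries had the lowest mean level, at 2.66, 1.25 and 1.71 (1.88 ± 0.72, n = 3), followed by Braf Arid2 KO on CKI at 2.05 and 2.10 (2.08 ± 0.04, n = 2). The means of the other groups, in rising order, were 2.71 ± 0.60 in Braf Arid1a KO on CKI (n = 3), 2.91 ± 0.36 in Braf Arid2 KO on vehicle (n = 2), 3.09 ± 1.07 in Braf on CKI (n = 3), 3.12 ± 0.76 in Braf on vehicle (n = 3), 3.13 ± 0.48 in Arid1a KO (n = 3), 3.48 ± 0.62 in Braf Smarcb1 KO on CKI (n = 3) and 3.64 ± 0.46 in Braf Arid1a KO on vehicle (n = 3). Neighbours in this order differed by less than the larger of their SDs, except for the step from Braf Arid2 KO on CKI to Braf Arid1a KO on CKI and the larger step from Braf Arid1a KO on vehicle to Braf Smarcb1 KO on vehicle. The libraries overlapped in the former step and did not in the latter. The score is a description and carries no test.

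**Figure D1:**
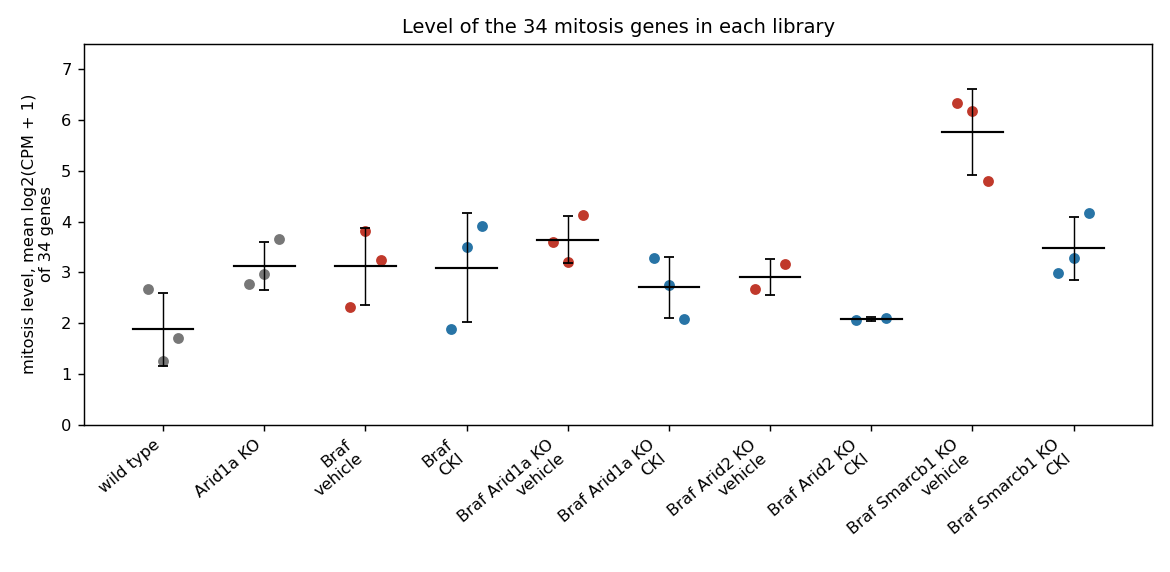
Mitosis level of each library (y axis, mean log2(CPM + 1) of 34 genes) in 10 groups (x axis). Points are libraries, grey for untreated, red for vehicle and blue for CKI, and lines are the group mean ± SD. Libraries of Braf Smarcb1 KO on vehicle sit at 4.79 to 6.33, above all others.

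Most of the 34 genes rose and fell together from library to library. In 33 of them the highest group mean was that of Braf Smarcb1 KO on vehicle, the exception being Pttg1, which was highest in Braf Arid1a KO on vehicle. For 22 genes the 3 Braf Smarcb1 KO vehicle libraries were also the 3 highest of all 28. The lowest group mean fell in Braf Arid2 KO on CKI for 21 genes, in wild type for 10, in Arid1a KO for 2 (Cdc20 and Cenpa) and in Braf Arid2 KO on vehicle for 1 (Pttg1). In several groups 1 library was low or high for nearly all members. Replicate 3 was the lowest of the Braf Smarcb1 KO vehicle libraries for 32 genes, replicate 1 the lowest on CKI in Braf for 33, replicate 2 the lowest on vehicle in Braf for 31, and replicate 1 the highest in wild type for 30. In other groups the order was mixed: the lowest library on CKI in Braf Arid2 KO was replicate 3 for 16 genes and replicate 4 for 18, and the lowest Arid1a KO library was replicate 1 for 17 and replicate 2 for 15. The members therefore do not give 34 independent readings of a group. Bub1 had 0 counts in replicate 5 of Braf Arid1a KO on CKI, which allows up to 0.116 CPM (3 counts), and no other member was at 0 in any library.

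**Figure D2:**
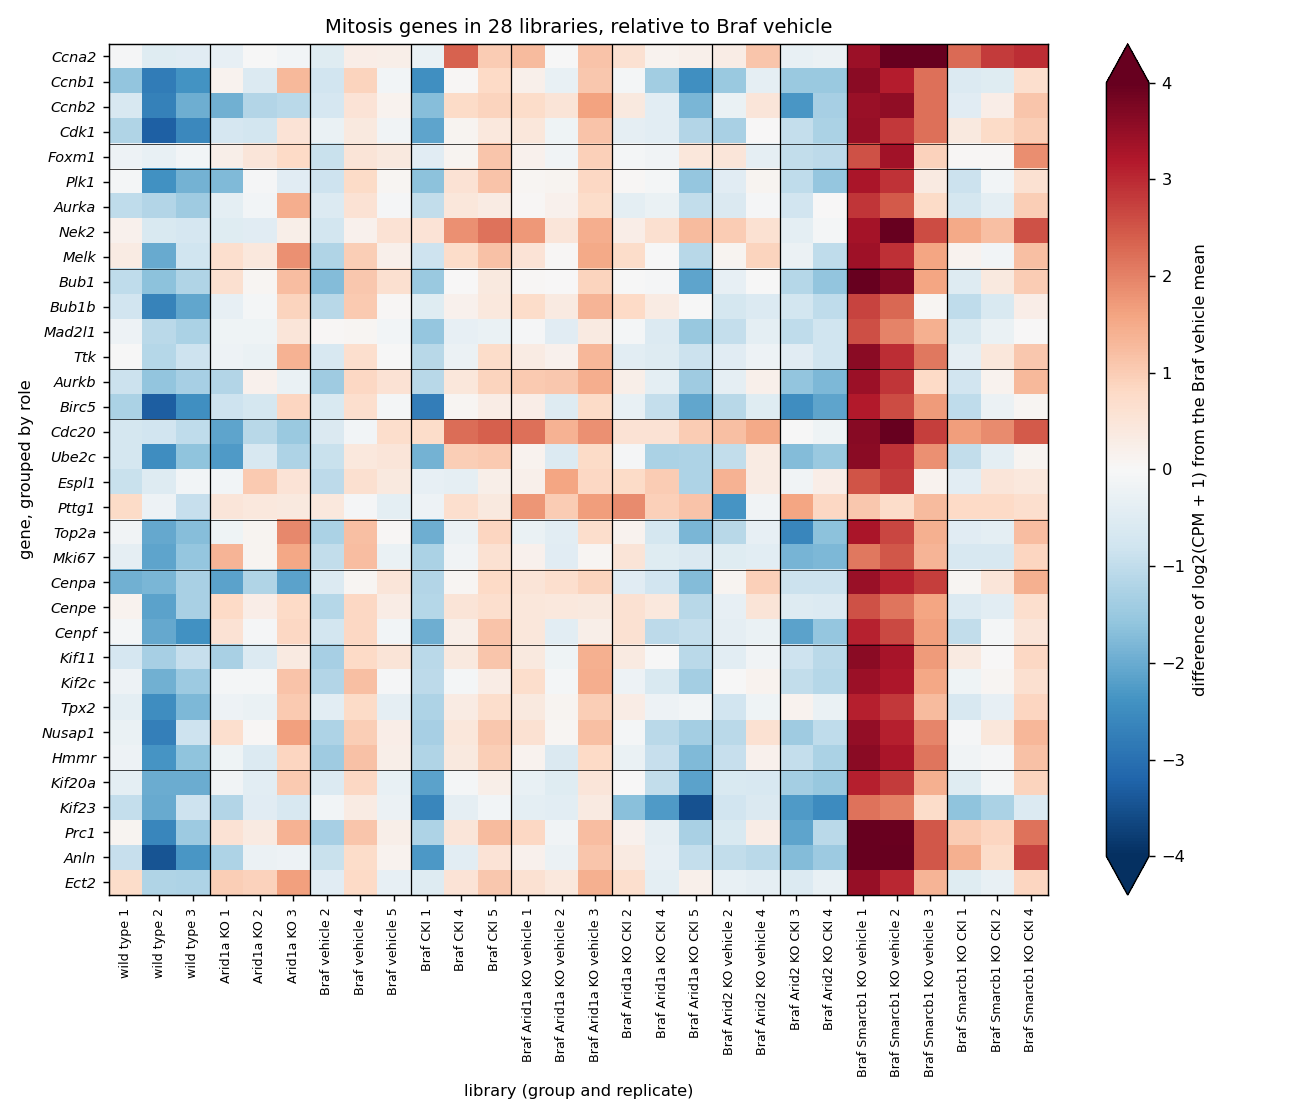
Each of the 34 genes (rows, grouped by role) in each of 28 libraries (columns), as the difference of log2(CPM + 1) from the Braf vehicle mean (colour scale, red higher and blue lower, cut at 4). The Braf Smarcb1 KO vehicle columns are red in nearly every row, and the Pttg1 row follows another pattern.

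Loss of Smarcb1 on top of Braf(V600E), under vehicle, was compared first. It raised 32 of the 34 genes and lowered none. Over all 34 the median log2 fold change was 2.84 (range 1.01 to 5.54), whereas the median of all 19016 genes was 0.03. Of all genes tested, 14.4% were called higher in this comparison. The libraries of the 2 genotypes did not overlap for 30 of the 34 genes, against 19.2% of all genes that were higher without overlap, and Plk1, Aurkb, Bub1b and Espl1 overlapped. Mki67 (1.87, SE 0.72, edgeR adjusted p = 0.055) and Pttg1 (1.01, SE 0.44, edgeR adjusted p = 0.091) did not pass the test. Values with an SE, here and below, are log2 fold changes.

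The cyclins and their kinase all rose. Ccnb1, the B-type cyclin that carries Cdk1 into mitosis, read 141, 103 and 53.2 CPM with Smarcb1 lost and 5.86, 20.6 and 9.75 CPM in Braf (8.19-fold; log2 fold change 3.03, SE 0.85, edgeR adjusted p = 0.011). Cdk1 itself read 258, 164 and 106 CPM against 18.4, 29.8 and 20.4 CPM (7.70-fold; 2.95, SE 0.65, edgeR adjusted p = 0.0021). Ccna2, the cyclin A of S phase and early mitosis, had the largest change of all members, from 0.255, 1.12 and 1.06 CPM in Braf to 18.0, 59.2 and 38.8 CPM (46.7-fold; 5.54, SE 0.84, edgeR adjusted p = 8.1e-05). For each of these genes the lowest library without Smarcb1 was above the highest Braf library. Ccnb2, the other B cyclin, rose by a log2 fold change of 3.22, SE 0.81, edgeR adjusted p = 0.0055. Foxm1, a transcription factor that activates many G2 genes, read 11.4, 21.1 and 3.04 CPM against 0.153, 2.03 and 1.77 CPM (3.15, SE 0.88, edgeR adjusted p = 0.010), with replicate 3 of the knockout far below the other two.

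Mitotic kinases and checkpoint genes followed. Plk1, which acts from mitotic entry to cytokinesis, read 62.5, 47.6 and 7.52 CPM against 2.70, 10.1 and 5.98 CPM in Braf (2.64, SE 0.97, edgeR adjusted p = 0.044), and the lowest knockout library lay within the Braf range. Aurkb and Birc5 (survivin) belong to the chromosomal passenger complex, which corrects faulty spindle attachments. Aurkb read 67.2, 45.0 and 9.94 CPM against 1.38, 10.4 and 8.45 CPM (2.59, SE 0.78, edgeR adjusted p = 0.016), again overlapping in its lowest library. Birc5 read 132, 90.4 and 47.6 CPM against 8.81, 23.0 and 13.1 CPM without overlap (2.59, SE 0.80, edgeR adjusted p = 0.019). Bub1, a kinase of the spindle checkpoint, read 84.8, 54.9 and 12 CPM against 0.306, 8.21 and 5.78 CPM (3.40, SE 1.06, edgeR adjusted p = 0.020). All 4 checkpoint genes rose, from 1.87 for Bub1b to 3.40 for Bub1 on the log2 scale, with Mad2l1 (2.11, SE 0.42, edgeR adjusted p = 0.00091) and Ttk (3.40, SE 0.83, edgeR adjusted p = 0.0044) between them. Aurka, the centrosomal Aurora kinase, rose by 2.31, SE 0.61, edgeR adjusted p = 0.0071, Melk by 2.76 and Nek2, a kinase of centrosome separation, by 5.01, SE 1.01, edgeR adjusted p = 0.0010.

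Genes of anaphase split. Cdc20, which activates the anaphase-promoting complex, read 69.5, 168 and 38.2 CPM against 2.80, 4.30 and 8.26 CPM (17.9-fold; 4.16, SE 0.58, edgeR adjusted p = 3.9e-05). Ube2c, the ubiquitin-conjugating enzyme of that complex, rose by 2.93, SE 0.78, edgeR adjusted p = 0.0080, and Espl1 (separase, the protease that parts sister chromatids) by 2.36, SE 0.79, edgeR adjusted p = 0.029. Pttg1, the securin that keeps separase inactive, read 103, 80.4 and 117 CPM against 65.7, 46.6 and 37.0 CPM: the genotypes did not overlap, and the adjusted p was above the threshold.

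Spindle, chromosome and cytokinesis genes completed the list. Kif11, the motor that pushes spindle poles apart, read 78.6, 62.7 and 20.2 CPM against 1.58, 10.3 and 8.26 CPM (3.0, SE 0.73, edgeR adjusted p = 0.0040). The 5 spindle genes Kif11, Kif2c, Tpx2, Nusap1 and Hmmr all rose, by 2.54 to 3.0 on the log2 scale, and so did the 5 cytokinesis genes Kif20a, Kif23, Prc1, Anln and Ect2, by 1.80 to 3.87. Anln (anillin, a scaffold of the contractile ring) read 347, 310.0 and 89.9 CPM against 7.79, 26.2 and 17.1 CPM. Cenpa, the histone H3 variant that marks centromeres, read 146, 112 and 90.6 CPM against 8.10, 12.9 and 17.7 CPM (3.17, SE 0.52, edgeR adjusted p = 0.00018), and Cenpe and Cenpf rose by 2.03 and 2.54. Top2a, the topoisomerase that untangles chromosomes, read 187, 125 and 51.9 CPM against 7.23, 44.5 and 19.3 CPM (2.36, SE 0.84, edgeR adjusted p = 0.038). Mki67, whose protein Ki-67 coats mitotic chromosomes, read 27.6, 35.8 and 16.0 CPM against 2.34, 14.8 and 4.56 CPM, with the highest Braf library just under the lowest knockout library.

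The count of 32 fell to 19 without replicate 2 of Braf vehicle, to 20 without replicate 5 of it and to 21 without replicate 1 of Braf Smarcb1 KO vehicle, and to 13 with the leukocyte level of each library as a covariate, while the median stayed between 2.41 and 3.25 in these and all other alternatives. That covariate also reduced the calls over all 19016 genes, from 5433 to 2308. In this comparison leukocyte markers were lower (4 of 7 called lower, summed level 124 to 329 CPM against 532 to 993 CPM in Braf vehicle, none at 0), as were macrophage markers (6 of 9 called lower, 519 to 1950.4 CPM against 3256 to 4451 CPM). Fibroblast markers (7 of 10 called lower, 1693 to 2812 CPM against 1201 to 24754 CPM) and epithelial markers (5 of 6 called lower, 744 to 2150 CPM against 5709 to 18249 CPM) were also lower. As mean log2(CPM + 1), the leukocyte level ran from 3.91 to 5.48 without Smarcb1 and from 6.08 to 6.96 in Braf, without overlap. The fit with this covariate therefore cannot tell leukocytes from genotype, and the part of the other cell types was not tested.

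CKI lowered mitosis genes in the thyroids without Smarcb1. All 34 fold changes were negative, with a median of -2.44 on the log2 scale against 0.03 over all genes, and 14 genes were called lower and none higher (of all genes, 3.85% were called, 2.05% as lower). At an unadjusted p under 0.05, 33 of the 34 genes were lower, where 3373 of all 19016 genes were under that p in either direction. Without overlap of libraries, 26 of 34 were lower, against 10.2% of all genes. All 14 called genes were also among the 32 that were higher with Smarcb1 loss under vehicle. The vehicle libraries are shared by the 2 comparisons, so the genes' values are set side by side below and their opposite signs are not independent.

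Cyclin B1 fell from 141, 103 and 53.2 CPM on vehicle to 6.95, 7.40 and 17.5 CPM on CKI (9.33-fold lower; log2 fold change -3.22, SE 0.86, edgeR adjusted p = 0.036), and Ccnb2 fell with it (-2.83, SE 0.80, edgeR adjusted p = 0.048). Cdk1 read 29.8, 38.9 and 44.9 CPM on CKI, below every vehicle library, with an adjusted p just above the threshold (-2.22, SE 0.63, edgeR adjusted p = 0.051). Ube2c fell most (11-fold; -3.46, SE 0.80, edgeR adjusted p = 0.018), and Cdc20 read 17.1, 20.3 and 30.4 CPM (-2.02, SE 0.53, edgeR adjusted p = 0.033). Mad2l1, which holds Cdc20 inactive while the checkpoint is on, had the smallest adjusted p of the members and read 14.9, 19.2 and 23.6 CPM on CKI against 143, 96.1 and 65.0 CPM on vehicle (-2.40, SE 0.43, edgeR adjusted p = 0.0029). Birc5 read 6.34, 11.6 and 14.6 CPM (-3.06, SE 0.82, edgeR adjusted p = 0.037). Kif11 read 7.38, 5.51 and 10.5 CPM (-2.79, SE 0.72, edgeR adjusted p = 0.030) and Cenpa 13.0, 17.6 and 35.1 CPM (-2.41, SE 0.51, edgeR adjusted p = 0.0094). For these 9 genes no CKI library reached the lowest vehicle library.

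Of the cytokinesis genes, Kif23 (-2.99, SE 0.63, edgeR adjusted p = 0.010) and Ect2 (-2.83, SE 0.65, edgeR adjusted p = 0.017) fell, as did Tpx2 (-2.55, SE 0.65) and Kif2c (-2.95, SE 0.81) of the spindle and the kinases Aurka (-2.21, SE 0.60) and Bub1b (-2.53, SE 0.68). Libraries of Aurka and Bub1b overlapped between vehicle and CKI. Several familiar markers of proliferation had similar values without passing. Mki67 read 3.28, 3.29 and 11 CPM on CKI (-2.18, SE 0.73, edgeR adjusted p = 0.098) and Top2a 13.3, 14.1 and 44.8 CPM (-2.34, SE 0.84, edgeR adjusted p = 0.12). Plk1 read 2.64, 5.12 and 9.07 CPM (-2.80, SE 0.97, edgeR adjusted p = 0.11), Aurkb 2.73, 5.97 and 14.4 CPM (-2.40, SE 0.77, edgeR adjusted p = 0.085) and Bub1 2.03, 4.67 and 7.68 CPM (-3.40, SE 1.06, edgeR adjusted p = 0.075). Foxm1 read 1.22, 1.19 and 6.80 CPM (-1.94, SE 0.83, edgeR adjusted p = 0.21), its replicate 4 on CKI lying above replicate 3 on vehicle. Securin again stood apart: Pttg1 read 84.2, 84.4 and 78.2 CPM on CKI against 103, 80.4 and 117 CPM on vehicle (95% interval of the log2 fold change -1.2 to 0.63).

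**Figure D3:**
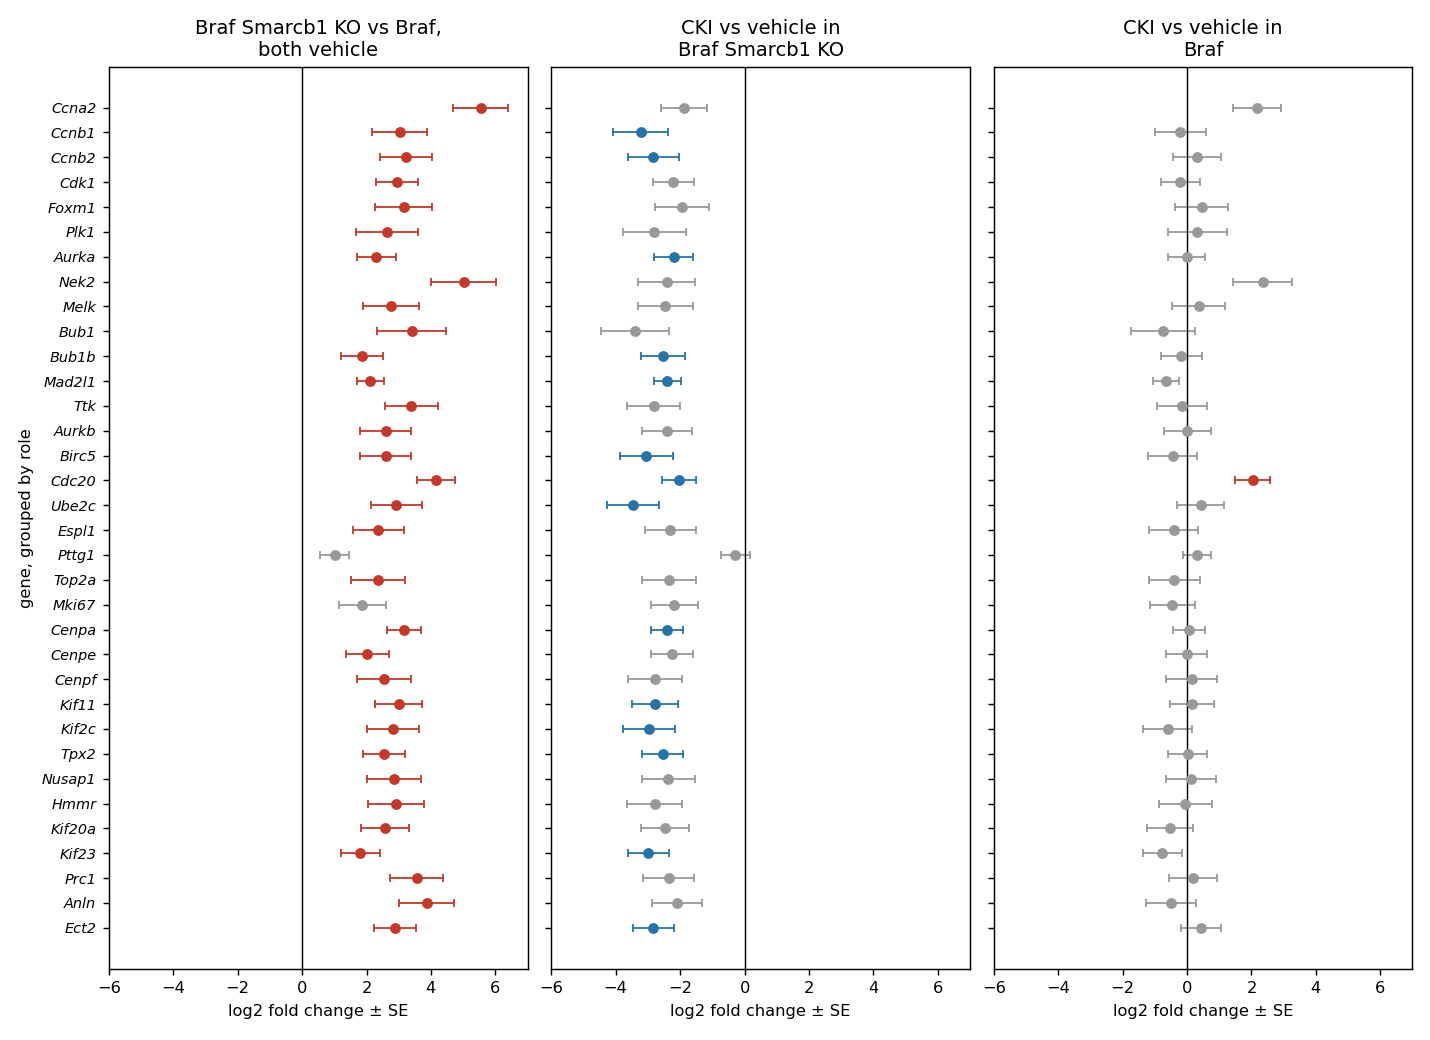
Log2 fold change ± SE (x axis) of each of the 34 genes (y axis, grouped by role) for Braf Smarcb1 KO against Braf under vehicle (left), CKI against vehicle in Braf Smarcb1 KO (middle) and CKI against vehicle in Braf (right). Red and blue points are called higher and lower, and grey points did not pass. Medians of the panels are 2.84, -2.44 and 0.00.

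How many of the 34 passed depended on single libraries. The 14 became 3, 5 and 22 without vehicle replicate 1, 2 or 3 and 1, 3 and 8 without CKI replicate 1, 2 or 4, whereas the median stayed between -3.05 and -2.19. Fitting only these 2 groups called 0 members and 2 of all 19016 genes, DESeq2 called 31 members and 1621 genes, and the fit with the dissociation stress level as a covariate called 2 members and 221 genes, against 14 and 732 in the edgeR fit of all libraries. The median stayed at -2.44 in the fit of 2 groups. The mean log2(CPM + 1) of 13 immediate-early and heat shock genes was 8.10 on vehicle and 9.34 on CKI in this genotype. The covariate was the mean of these genes without Egr1. The level of the 13 genes ran from 7.48 to 8.45 on vehicle and from 9.26 to 9.45 on CKI, without overlap. The fit with the covariate therefore cannot tell stress from treatment, and the part of stress in the result was not tested. Follicular markers rose with CKI in this genotype (6 of 10 called higher, 1645 to 2445 CPM against 158 to 233 CPM), and their part was not tested.

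On CKI, none of the 34 genes was shown by edgeR to differ between thyroids with and without Smarcb1. Between Braf Smarcb1 KO and Braf, both on CKI, edgeR called 0 of the 34 genes, with 2 under an unadjusted p of 0.05 (5650 of all genes), 1 gene called by DESeq2 and a median of 0.17. Of all genes, 17.1% were called in either direction, 7.87% as higher and 9.19% as lower. The intervals stay wide: Ccnb1 differed by 0.02 (95% interval -1.62 to 1.66), Cdc20 by 0.10 (-0.96 to 1.16) and Mki67 by 0.15 (-1.31 to 1.60) on the log2 scale. Anln was the member nearest to a call, at 43.0, 26.2 and 105 CPM without Smarcb1 against 2.30, 11.1 and 22.9 CPM in Braf (2.26, SE 0.79, edgeR adjusted p = 0.052), with no overlap. Leaving out replicate 4 or 5 of Braf CKI or replicate 2 of Braf Smarcb1 KO CKI gave 1 call, and the median ran from -0.35 without replicate 4 of Braf Smarcb1 KO CKI to 0.70 without replicate 5 of Braf CKI.

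In Braf thyroids without a further deletion, the members had CKI fold changes on both sides of 0. The median log2 fold change was 0.00, with 17 genes above 0 and 17 below. It was -0.51 without CKI replicate 5, 0.49 without vehicle replicate 4 and 0.83 with the dissociation stress covariate. By edgeR, 1 gene was called (13% of all genes were called in either direction, 7.96% higher). In all, 3 members had an unadjusted p under 0.05 (5461 of all genes), and DESeq2 called 3 genes, all higher. The called gene was Cdc20, at 2.80, 4.30 and 8.26 CPM on vehicle (replicates 2, 4 and 5) and 8.50, 25.7 and 29.1 CPM on CKI (replicates 1, 4 and 5), so that every CKI library was above every vehicle library (4.11-fold; 2.04, SE 0.54, edgeR adjusted p = 0.018). The call was lost without vehicle replicate 2 or 4 or CKI replicate 4 or 5, and without CKI replicate 1 the count was 2. Ccna2 (2.17, SE 0.74, edgeR adjusted p = 0.057) and Nek2 (2.35, SE 0.92, edgeR adjusted p = 0.091) had positive values of similar size that missed the threshold. Other members spread widely between CKI libraries: Ccnb1 read 1.14, 11 and 19.2 CPM, Cdk1 4.41, 24.3 and 30.5 CPM, Top2a 4.02, 15.7 and 34.5 CPM and Mki67 1.78, 4.97 and 9.09 CPM, the first value being replicate 1 in each case. On vehicle, Ccnb1 had read 5.86, 20.6 and 9.75 CPM, Cdk1 18.4, 29.8 and 20.4 CPM and Top2a 7.23, 44.5 and 19.3 CPM. The treatments overlapped for each of these genes. Leukocyte markers fell with CKI in Braf (7 of 7 called lower, 82.0 to 194 CPM against 532 to 993 CPM), follicular markers rose (9 of 10), and dissociation stress genes rose (6 of 13). With the leukocyte or the stress level as a covariate 0 members were called, as were only 82 and 119 of all genes, against 2466 without one. As mean log2(CPM + 1), leukocyte genes ran from 6.08 to 6.96 on vehicle and 3.46 to 4.52 on CKI. Stress genes ran from 7.38 to 8.71 on vehicle and 9.31 to 10.1 on CKI. Neither level overlapped between treatments, so these fits cannot separate them from CKI. The part of follicular cells was not tested.

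The drug responses themselves were compared next, as the fold change by CKI in a knockout minus that in Braf. With Smarcb1 lost, all 34 differences were negative, with a median of -2.53 against 0.03 over all genes, 26 had an unadjusted p under 0.05 (2194 of all genes), and 1 was called (0.195% of all genes were called lower in this test). That gene was Cdc20, which rose on CKI in Braf and fell on CKI without Smarcb1 (difference -4.06, SE 0.75, edgeR adjusted p = 0.017). The responses of Mki67 (-1.72, SE 1.0, edgeR adjusted p = 0.52), Ccnb1 (-3.01, SE 1.14, edgeR adjusted p = 0.33) and Cdk1 (-2.00, SE 0.87, edgeR adjusted p = 0.39) were not shown to differ at the threshold. DESeq2 called 6. The Cdc20 call was lost without replicate 4 of Braf vehicle, replicate 2 of Braf Smarcb1 KO vehicle, or replicate 1 or 2 of its CKI libraries, and 2 genes were called without replicate 1 of Braf CKI. With Arid2 lost, 2 genes differed (7.19% of all genes were called lower), Ccna2 (-4.23, SE 1.2, edgeR adjusted p = 0.032) and again Cdc20 (-3.69, SE 0.85, edgeR adjusted p = 0.015), and the median was -1.22 (-2.64 with the stress covariate, -1.86 without Braf vehicle replicate 4 and -0.64 without Braf CKI replicate 5). These calls went to 1 without replicate 2 of either vehicle group or replicate 4 of Braf CKI and to 0 without either Arid2 KO CKI library. With Arid1a lost, no member was called (4 at an unadjusted p under 0.05, 1 by DESeq2, median -1.12, which was -2.11 with the stress covariate and -0.57 without Braf CKI replicate 5), and no gene of the 19016 was (2018 at an unadjusted p under 0.05, 172 by DESeq2). Without replicate 5 of its CKI libraries, 1 member was called. Cdc20 had the most negative of these differences (-3.22, SE 0.75, edgeR adjusted p = 0.20). The 3 differences share the Braf libraries and are not independent of each other.

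**Figure D4:**
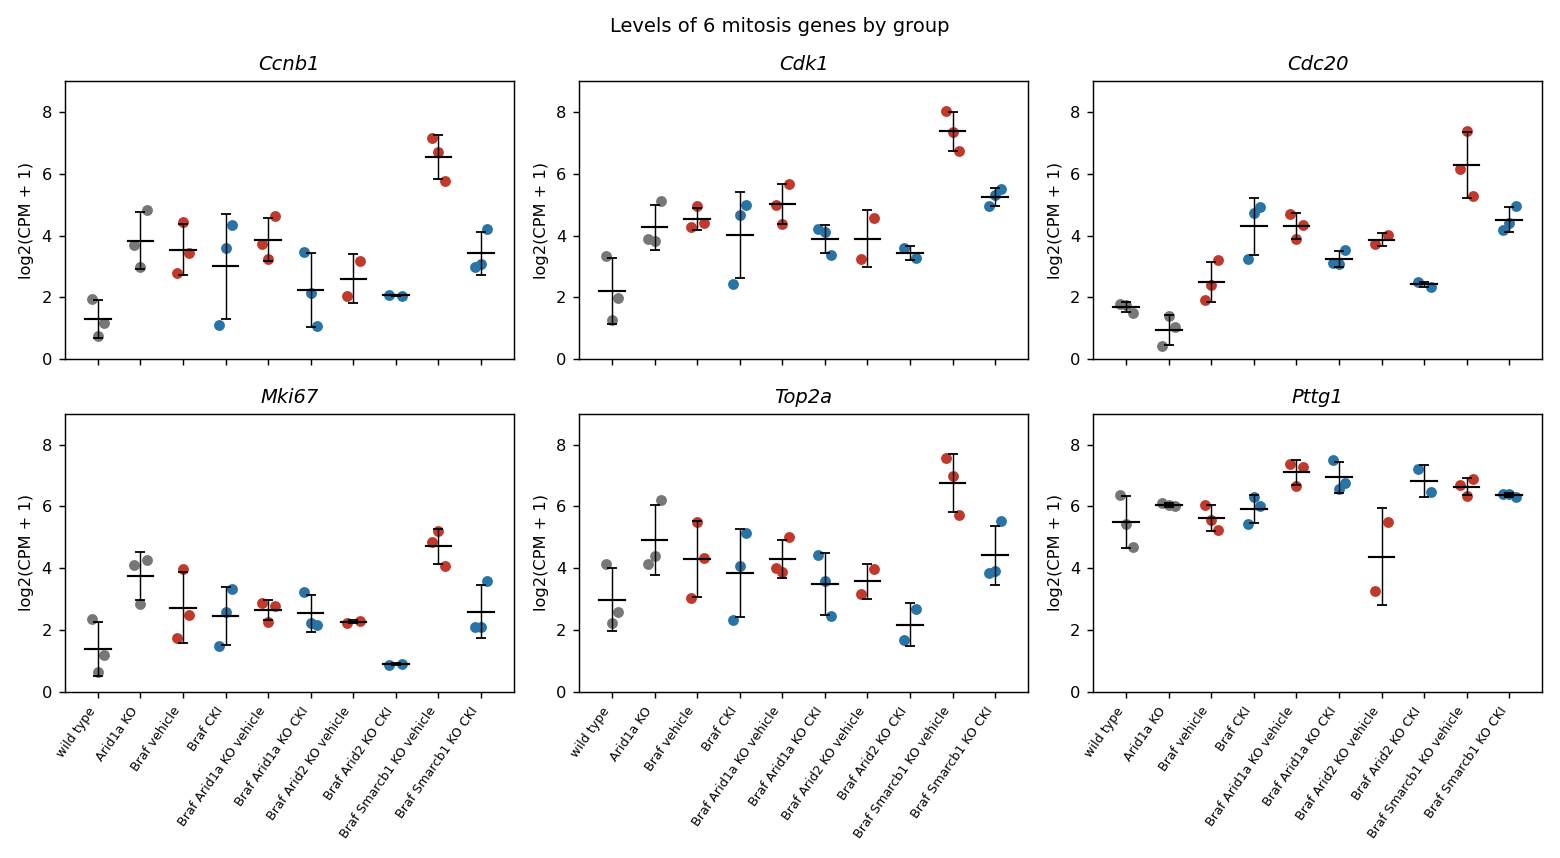
Log2(CPM + 1) (y axis) of Ccnb1, Cdk1, Cdc20, Mki67, Top2a and Pttg1 in 10 groups (x axis). Points are libraries, grey for untreated, red for vehicle and blue for CKI, and lines are the group mean ± SD. Mean Cdc20 is higher on CKI than on vehicle in Braf and lower on CKI in the other genotypes with Braf(V600E), and Pttg1 is not highest in Braf Smarcb1 KO on vehicle.

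With loss of Arid1a or Arid2 under Braf(V600E), few members were called, at shares near those of all genes. A member without a call was not shown to be unchanged. Under vehicle, Arid1a loss raised 2 of the 34 genes (of all genes, 9.56% were called, 4.25% as higher and 5.31% as lower), with a median of 0.46. These were Cdc20, at 25.1, 13.9 and 19.2 CPM against 2.80, 4.30 and 8.26 CPM in Braf (1.92, SE 0.53, edgeR adjusted p = 0.027), and Pttg1, at 166, 99.6 and 155 CPM against 65.7, 46.6 and 37.0 CPM (1.49, SE 0.45, edgeR adjusted p = 0.039), both without overlap. Leaving out replicate 2 or 5 of Braf vehicle left 1 of the calls, and leaving out its replicate 4, or replicate 1 or 3 of the knockout, left 0. The median was 0.07 without replicate 3 of the knockout and 0.89 without replicate 4 of Braf vehicle. Ccnb1 (12.3, 8.51 and 23.7 CPM; 0.30, SE 0.79, edgeR adjusted p = 0.86) and Mki67 (6.44, 3.83 and 5.94 CPM; -0.42, SE 0.70, edgeR adjusted p = 0.76) overlapped with Braf. Under vehicle, Arid2 loss gave 0 calls by edgeR and by DESeq2, 1 unadjusted p under 0.05 (4185 of all genes) and a median of -0.51, which was 0.04 without Braf vehicle replicate 4 (3.61% of all genes were called). Cdc20 read 12.2 and 15.3 CPM in its libraries (replicates 2 and 4), above all Braf libraries (1.42, SE 0.57, edgeR adjusted p = 0.15). Fibroblast markers were lower than in Braf with either loss under vehicle (8 of 10 called lower with Arid1a loss, 405 to 957 CPM, and 6 of 10 with Arid2 loss, 445 to 866 CPM, against 1201 to 24754 CPM), and their part in these results was not tested.

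CKI in Braf Arid1a KO gave 34 negative fold changes with a median of -0.94, and 2 genes were called lower (of all genes, 4.51% were called, 2% as lower). Kif23, a kinesin of the central spindle, read 13.9, 13.8 and 24.4 CPM on vehicle (replicates 1, 2 and 3) and 5.24, 3.15 and 0.776 CPM on CKI (replicates 2, 4 and 5; -2.50, SE 0.63, edgeR adjusted p = 0.026). Cenpa read 18.0, 20.4 and 23.6 CPM and 8.73, 6.90 and 2.99 CPM (-1.74, SE 0.50, edgeR adjusted p = 0.048). Neither gene overlapped between treatments, and 12 of the 34 members were lower without overlap, against 14.2% of all genes. Only 1 call was left without vehicle replicate 1 or 2 or CKI replicate 2, and 0 without vehicle replicate 3 or CKI replicate 4 or 5. No other member passed the test. Some of them had these levels on CKI: Ccnb1 10.1, 3.47 and 1.12 CPM, Cdk1 17.4, 16.4 and 9.35 CPM, Plk1 5.75, 5.25 and 1.28 CPM and Aurkb 6.53, 3.79 and 1.36 CPM. Log2 fold changes ranged from -1.81 for Aurkb and -1.60 for Ccnb1 to -0.73 for Top2a, -0.50 for Foxm1 and -0.05 for Mki67 among the members named by rule. Against Braf on CKI, edgeR called 0 members (5 unadjusted p under 0.05 against 2962 of all genes, 1 by DESeq2, median -0.64, or -0.07 without Braf CKI replicate 5, 2.30% of all genes called), and 1 was called when replicate 1 of Braf CKI was left out. Follicular markers rose with CKI in Braf Arid1a KO (9 of 10 called), and leukocyte markers read 65.3 to 234 CPM on CKI against 257 to 716 CPM on vehicle (1 of 7 called lower). With the leukocyte covariate 0 members were called, and 291 of all genes against 858. The part of follicular cells was not tested.

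CKI in Braf Arid2 KO gave 32 negative fold changes of 34 and a median of -1.46, yet the only call was a rise (of all genes, 3.37% were called, 1.41% as higher and 1.96% as lower). Pttg1 read 8.68 and 43.7 CPM on vehicle and 146 and 86.6 CPM on CKI (replicates 3 and 4), 4.43-fold higher (2.15, SE 0.56, edgeR adjusted p = 0.037), and the call was lost without vehicle replicate 2 or either CKI library. An unadjusted p under 0.05 was found for 9 members (3965 of all genes), and 26 were lower without overlap, against 29.2% of all genes with 2 libraries a group. Foxm1 read 1.97 and 0.655 CPM on vehicle and 0.0787 and 0.0357 CPM on CKI, the latter from 2 counts and 1 count, and did not pass (edgeR adjusted p = 0.065). Mki67 read 3.72 and 3.93 CPM on vehicle and 0.827 and 0.894 CPM on CKI (-2.15, SE 0.93, edgeR adjusted p = 0.19). Ccnb1 read 3.13 and 8.01 CPM on vehicle and 3.19 and 3.18 CPM on CKI (-0.81, SE 0.99, edgeR adjusted p = 0.69). Cdc20 read 12.2 and 15.3 CPM on vehicle and 4.61 and 4.11 CPM on CKI (-1.65, SE 0.65, edgeR adjusted p = 0.15). A fit of only these 2 groups called 7 members, all lower, and 1651 of all genes against 640 in the fit of all libraries. The median was -0.99 with the leukocyte covariate. Against Braf on CKI, edgeR called 0 members, with 13 unadjusted p under 0.05 (4216 of all genes), a median of -1.74 (-1.10 without Braf CKI replicate 5) and 11 genes called lower by DESeq2 (of all genes, edgeR called 1.27%, 0.352% as higher and 0.915% as lower). There 6 members were lower without overlap, against 25.4% of all genes. Leukocyte markers read 78.9 to 82.7 CPM on CKI and 384 to 386 CPM on vehicle in Braf Arid2 KO.

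Braf(V600E) and Arid1a loss were each compared with wild type. Braf thyroids on vehicle had 6 members higher and none lower (9.84% of all genes were called higher), 19 unadjusted p under 0.05 (6314 of all genes) and a median of 1.53. The 6 were Ccnb1, Cdk1, Bub1b, Birc5, Cenpa and Anln. Ccnb1 read 2.90, 0.698 and 1.25 CPM in wild type (replicates 1, 2 and 3) and 5.86, 20.6 and 9.75 CPM in Braf (7.47-fold; 2.90, SE 0.86, edgeR adjusted p = 0.020), Cdk1 read 9.25, 1.43 and 2.94 CPM in wild type (2.33, SE 0.64, edgeR adjusted p = 0.013) and Cenpa read 2.51, 2.76 and 4.48 CPM (1.99, SE 0.51, edgeR adjusted p = 0.0080). Mki67 read 4.15, 0.551 and 1.28 CPM in wild type and did not pass (1.86, SE 0.73, edgeR adjusted p = 0.076). Wild-type replicate 1 was high for nearly all members: without it 17 genes were called and the median was 2.51, and without wild-type replicate 2 or 3 only 1 was. Without Braf vehicle replicate 4 the count was 2 and the median 1.01. Fibroblast markers were higher in Braf than in wild type (9 of 10 called, 1201 to 24754 CPM against 807 to 1536 CPM), leukocyte markers were higher for 3 of 7 genes, and follicular markers were lower for 9 of 10. Parathyroid markers summed to 32.8 to 60.2 CPM in Braf against 4214 to 14843 CPM in wild type. C cell markers summed to 25.1 to 137 CPM against 8402 to 32710 CPM, and endothelial markers to 29.7 to 686 CPM against 1734 to 2692 CPM. Macrophage (3256 to 4451 against 725 to 2570 CPM), mast cell (376 to 4303 against 26.1 to 98.0 CPM) and epithelial sums (5709 to 18249 against 3255 to 3566 CPM) were higher. Apart from the leukocyte covariate, the part of these cell types in the result was not tested.

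Arid1a KO thyroids without Braf(V600E) also had 6 members higher than wild type and none lower (6.84% of all genes were called higher), with 20 unadjusted p under 0.05 (6177 of all genes) and a median of 1.62. Ccnb1, Cdk1, Bub1b and Birc5 were called in both comparisons, which share the wild-type libraries, and Aurka and Mki67 were called in this comparison and not in the other, a difference that was not tested. Mki67 read 16.1, 6.21 and 18.4 CPM (6.80-fold; 2.77, SE 0.75, edgeR adjusted p = 0.014), Ccnb1 11.9, 6.97 and 27.6 CPM (3.26, SE 0.87, edgeR adjusted p = 0.013) and Cdk1 13.7, 13.2 and 33.5 CPM (2.14, SE 0.64, edgeR adjusted p = 0.022). Cdc20 went the other way in level, at 0.337, 1.65 and 1.05 CPM against 2.48, 2.39 and 1.82 CPM in wild type, all lower and not past the threshold (-1.13, SE 0.55, edgeR adjusted p = 0.16), and Cenpa read 2.02, 4.74 and 2.01 CPM (-0.15, SE 0.50, edgeR adjusted p = 0.88). The count was 19 without wild-type replicate 1, where the median was 2.81, 10 without Arid1a KO replicate 2, and 0 without wild-type replicate 2 or 3 or Arid1a KO replicate 3. With the stress covariate the count was 0 and the median 0.98. Leukocyte markers were higher in Arid1a KO than in wild type (7 of 7 called, 1511 to 2473 CPM against 151 to 405 CPM), macrophage markers likewise (7 of 9, 7065 to 17759.5 CPM against 725 to 2570 CPM), and fibroblast markers too (7 of 10). With the leukocyte level as a covariate 0 members were called in this comparison, and 1 of all 19016 genes, against 3538 without it. The members' median was 1.30. As mean log2(CPM + 1), the leukocyte level ran from 4.17 to 5.59 in wild type and from 7.33 to 8.12 in Arid1a KO. The fit with this covariate therefore cannot tell leukocytes from genotype. In Braf against wild type that fit called 0 members and 2349 of all genes, against 3795, with a median of 1.47. Parathyroid markers summed to 136 to 629 CPM in Arid1a KO against 4214 to 14843 CPM in wild type, and erythroid markers to 1375 to 2879 CPM against 135 to 549 CPM. The part of macrophages, fibroblasts, parathyroid and erythroid cells was not tested.

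Other genes of the cell cycle, from lists written for comparison, were read the same way. With Smarcb1 loss under vehicle, 14.4% of all genes were called higher and 14.2% lower. Of 59 further mitosis genes, 47 were higher and none lower with Smarcb1 loss under vehicle (median 2.53), led by Plk4, the kinase of centriole copying (3.49, SE 0.33, edgeR adjusted p = 6.6e-07), Sgol2, a guardian of centromere cohesion (4.22, SE 0.56, edgeR adjusted p = 2.2e-05), Trip13 (4.24, SE 0.58, edgeR adjusted p = 3e-05) and Wee1, the kinase that restrains Cdk1 (3.24, SE 0.46, edgeR adjusted p = 4.4e-05). Of 26 DNA replication genes, 20 were higher (median 1.67), among them Ccne2, Cdc45, Rrm2 and Cdt1 (log2 fold changes 2.72, 2.89, 4.31 and 3.07). Of 20 genes of the E2F, DREAM and Myb factors, 11 were higher and Lin37 was lower (median 1.37; Lin37 is named after its value was seen), led by Tfdp1 (1.88, SE 0.22, edgeR adjusted p = 6.3e-06). Of 16 genes of the anaphase-promoting complex, 7 were higher, led by its inhibitor Fbxo5 (Emi1; 2.59, SE 0.47, edgeR adjusted p = 0.00044). Of 12 CDK inhibitor and quiescence genes, 1 was higher, no larger a share than over all genes. It was Ccng1 (0.94, SE 0.33, edgeR adjusted p = 0.035).

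For CKI against vehicle without Smarcb1, 3.85% of all genes were called, 2.05% as lower. There 19 of the 59 mitosis genes fell and none rose (median -2.09), led by Trip13 (-2.84, SE 0.54, edgeR adjusted p = 0.0049) and Cks1b (-1.64, SE 0.32, edgeR adjusted p = 0.0052). Of the 26 replication genes, 10 fell (median -1.45), led by Ccne2, an E-type cyclin of S phase entry (-2.54, SE 0.40, edgeR adjusted p = 0.0011). The E2F, DREAM and Myb genes, the anaphase-promoting complex genes and the CDK inhibitor genes had medians of -0.08, -0.03 and 0.55 in that comparison, with 2, 3 and 3 genes under an unadjusted p of 0.05 and 0 called by edgeR. On CKI, 6 of the 59 mitosis genes were called higher without Smarcb1 than in Braf, a share near the 7.87% of all genes called higher there. Cks2 (2.74, SE 0.40, edgeR adjusted p = 8.9e-05) and Wee1 (2.42, SE 0.44, edgeR adjusted p = 0.00072) led. So were 4 of the 20 E2F, DREAM and Myb genes, led by E2f1 (3.16, SE 0.49, edgeR adjusted p = 0.00016) and including Rb1 (1.46, SE 0.45, edgeR adjusted p = 0.028). Called higher there too were the replication genes Cdc45 and Cdt1 (1.97 and 2.02). From the CDK inhibitor and quiescence list, Cdkn2c (1.45, SE 0.30, edgeR adjusted p = 0.0022), Ccng1 (1.47, SE 0.33, edgeR adjusted p = 0.0039) and Cdkn2a (2.68, SE 0.75, edgeR adjusted p = 0.017) were also called higher. In Braf, CKI raised 4 of the 59 mitosis genes, a share near the 7.96% of all genes called higher there, and lowered Cks1b (named after its value was seen). Plk4 (1.46, SE 0.31, edgeR adjusted p = 0.0067) and Fam83d (3.26, SE 0.80, edgeR adjusted p = 0.013) led the raised genes. Of the E2F, DREAM and Myb genes, CKI in Braf raised the pocket protein genes Rbl1 (1.28, SE 0.29, edgeR adjusted p = 0.0091) and Rbl2 (1.64, SE 0.43, edgeR adjusted p = 0.019). From the same list it raised E2f5 (1.78, SE 0.41, edgeR adjusted p = 0.010) and E2f4. The replication gene Mcm6 and the anaphase-promoting complex genes Ube2d1, Cdc16, Fzr1 and Ube2s were called higher too. So was the CDK inhibitor Cdkn1c (2.28, SE 0.70, edgeR adjusted p = 0.035). CKI raised Cdkn1c in Braf Arid1a KO as well (2.91, SE 0.71, edgeR adjusted p = 0.023). In Braf Arid2 KO it lowered the CDK inhibitors Cdkn2a (-4.05, SE 1.03, edgeR adjusted p = 0.032) and Cdkn2b (-3.85, SE 0.93, edgeR adjusted p = 0.024), which had been higher in Braf on vehicle than in wild type (5.40 and 3.16). Mean Cdkn2a was only 0.131 CPM on CKI and 2.23 CPM on vehicle in Braf Arid2 KO. It was 1.13 CPM in Braf on vehicle and 0.0213 CPM in wild type, so its fold changes rest on few reads.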

How the data were processed

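RNA-seq libraries of mouse thyroid were made with a TruSeq RNA kit, per the labels' protocols, whose strandedness is not stated. The authors deposited a table of read counts per gene, not normalized. The build mm9 and the tools HTSeq 0.6.1, STAR 2.4 and DESeq2 appear in the submitters' processing notes, which do not say what each was used for. Of 30 labelled samples, 28 were analysed, and Braf Arid2 KO vehicle replicate 1 and CKI replicate 2 were not analysed here. Library totals were 23879271 to 34400066 counts, and TMM factors 0.723 to 1.25. No pair of libraries within a group agreed within counting noise.

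In R 4.3.3, genes were filtered with filterByExpr, which left 19016 of 33924, and tested with edgeR 4.0.16 (TMM, glmQLFit, glmQLFTest, two-sided) in 1 fit of all 28 libraries with a term per group. In each of 15 comparisons, Benjamini-Hochberg adjustment ran over all 19016 genes, and calls are at 0.05. The edgeR test was also run on counts simulated from the deposited ones, for some of the comparisons. Mitosis levels are means of log2(CPM + 1). Other settings tried were DESeq2 1.42.0 as the test, size factors by RLE, no filter on counts, only the compared groups, replicate number as a block, the leukocyte level as a covariate, each library left out and a pseudocount of 0.5. The dissociation stress covariate, computed without Egr1, was added after the data were seen. Where the leukocyte or stress level did not overlap between the compared groups, a fit with that covariate cannot separate it from the comparison.

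The 34 members and the lists beside them were chosen with earlier results of these data known. All members may be named. Every library's value was given for 12 members named by rule (Mki67, Top2a, Ccnb1, Cdk1, Plk1, Aurkb, Birc5, Cdc20, Bub1, Kif11, Cenpa and Foxm1) and for members that went against most. This holds for Braf Smarcb1 KO against Braf under vehicle and for CKI in Braf Smarcb1 KO. In the other comparisons only some of these members were given. Of the comparison lists, up to 4 called genes with the smallest adjusted p were named per comparison. Promoters are from RefSeq tables of GRCm38.p6, joined by gene symbol, and coordinates are those of that build.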

Additional observations from a re-analysis of the deposited data

Results flagged for a closer look

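The response to CKI differed between genotypes for 2 genes by the test of the difference itself (edgeR adjusted p over 19016 genes). Cdc20 responded differently in Braf Smarcb1 KO than in Braf, with a difference of log2 fold changes of -4.06, SE 0.75, edgeR adjusted p = 0.017, and in Braf Arid2 KO than in Braf (-3.69, SE 0.85, edgeR adjusted p = 0.015). In Braf, Cdc20 was higher in each CKI library than in every vehicle library, at 8.50, 25.7 and 29.1 CPM against 2.80, 4.30 and 8.26 CPM. It was lower on CKI than every vehicle library in Braf Smarcb1 KO (17.1, 20.3 and 30.4 CPM against 69.5, 168 and 38.2 CPM) and in Braf Arid2 KO (4.61 and 4.11 CPM against 12.2 and 15.3 CPM). Ccna2 responded differently in Braf Arid2 KO than in Braf (-4.23, SE 1.2, edgeR adjusted p = 0.032), at 1.17 and 2.77 CPM on vehicle and 0.433 and 0.50 CPM on CKI in the former, and 0.255, 1.12 and 1.06 CPM and 0.454, 8.13 and 2.58 CPM in the latter. Both tests use the same Braf libraries. The Cdc20 difference lost its call in 6 of 19 alternative settings for Smarcb1 KO and 3 of 17 for Arid2 KO. Ccna2 lost it in 9 of 17, and the Cdc20 call for CKI in Braf was lost in 7 of 13.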

How the results depend on the processing

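No call of a member changed direction under any alternative: of 883 checks on 67 called values, 598 kept the call and 285 lost it. The medians that moved, by the stress covariate, the leukocyte covariate or a left-out library, are given with their comparisons above. In CKI against vehicle in Braf Smarcb1 KO, 14 became 9 with a replicate block, 9 with the leukocyte covariate, 0 with only the compared groups, 31 by DESeq2 and 2 with the stress covariate. In Braf Smarcb1 KO against Braf under vehicle, 32 became 13 with the leukocyte covariate. In CKI against vehicle in Braf, 1 became 3 by DESeq2 and 0 with only the compared groups or either covariate. In Braf Arid1a KO, 2 became 1 with the block and 0 with the leukocyte covariate or only the compared groups. In Braf Arid2 KO, 1 became 7 with only the compared groups, 2 by DESeq2 and 0 with the block or the leukocyte covariate. Under vehicle, Braf Arid1a KO against Braf went from 2 to 1 with RLE, the block, only the compared groups or the stress covariate, and to 0 with the leukocyte covariate. On CKI, Braf Arid1a KO against Braf gave 1 by DESeq2 and with the stress covariate, Braf Arid2 KO against Braf gave 1 with no filter, 2 with only the compared groups or the leukocyte covariate and 11 by DESeq2, and Braf Smarcb1 KO against Braf gave 1 with RLE, no filter or DESeq2. Braf against wild type went from 6 to 0 with the block or the leukocyte covariate and to 13 by DESeq2, and Arid1a KO against wild type to 0 with either covariate and 17 by DESeq2. Differences in drug response gave 1 (Arid1a), 5 (Arid2) and 6 (Smarcb1) by DESeq2. With only the compared groups the Arid2 difference gave 1 and the Smarcb1 difference 0, with the stress covariate the Arid2 difference gave 0, and with the leukocyte covariate the Smarcb1 difference gave 0. Leaving out each library in turn gave 19 to 33 members for Smarcb1 loss under vehicle, 1 to 22 for CKI in Braf Smarcb1 KO, 0 to 2 for CKI in Braf, 0 to 1 for CKI in Braf Arid1a KO and in Braf Arid2 KO, 0 to 2 for Arid1a loss and 0 to 0 for Arid2 loss under vehicle, 0 to 1 for Arid1a and Smarcb1 loss and 0 to 0 for Arid2 loss on CKI, 1 to 17 for Braf and 0 to 19 for Arid1a KO against wild type, and 0 to 1, 0 to 3 and 0 to 2 for the Arid1a, Arid2 and Smarcb1 differences in response. The cause of these changes was not tested. With a pseudocount of 0.5 the mitosis level of Braf Arid2 KO on CKI was 1.82 in place of 2.08. Replicate numbers were not taken as pairs in the main fit. Correlations of same-numbered libraries' deviations ran from -0.535 to 0.241. Arid1a KO against wild type, the 1 comparison with 3 shared numbers, gave 0.0711, 0.241 and 0.0561. So few shared numbers cannot show whether the samples were paired. Only 2 or 3 libraries a group limit every count, and members near 1 CPM rest on few reads.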
